A study of Homo sapiens with 79 samples.

Results

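FOXD1, EMX2, OTX1, EN1, EN2, GBX2, IRX3, PAX3 and ZIC1 are transcription factor genes that mark regions of the embryonic brain and spinal cord outside the HOX clusters. The 9 symbols were listed by name by a rule that used no measured value, but that was set with earlier results of these data known. Of these symbols, 8 were rows of the count table, out of 24414 gene rows. GBX2 was not analysed here. All cells came from 1 human embryonic stem cell line, H9 carrying a CRX-GFP reporter, an established line in which the photoreceptor gene CRX drives green fluorescent protein. The line was grown into retinal organoids, which are layered aggregates that resemble the developing retina. Every group shared the same medium, to which foetal calf serum, the thyroid hormone T3, taurine and retinoic acid were added, and the groups differed in the day of collection. Day 90 also had more spike-in RNA than the other days, with a looser spike-in limit for cells, and day 60 had a lower read minimum. These differences go with the day and cannot be told apart from it. Single cells were captured on 1 Fluidigm C1 chip at day 60 (578 cells), 1 at day 90 (661 cells) and 2 at day 200, called chip a (356 cells) and chip b (381 cells), and polyadenylated RNA was sequenced from SMART-Seq v4 cDNA.

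The embryonic neural tube is divided along its length into forebrain, midbrain and hindbrain, and the eye field is a part of the early forebrain. Each division is set up by transcription factors that are switched on in bands, with OTX genes in the forebrain and midbrain, engrailed genes around the boundary of midbrain and hindbrain, and HOX genes behind it. Other factors mark the dorsal side of the tube over much of its length, PAX3 and ZIC1 among them. Several of these genes are also used outside the brain: FOXD1 in the temporal retina and in kidney stroma, EMX2 in the urogenital tract, PAX3 in neural crest and muscle, EN1 in the ventral ectoderm of the limb and IRX3 in limb mesenchyme. The eye field itself was followed with a list of 7 genes, among them RAX, PAX6, SIX3, SIX6, LHX2 and NR2E1, and the overlap of the members with this list in single cells was the comparison that the study design allowed.

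The chips are the highest level of repetition. Day 60 and day 90 had 1 chip each, and the 2 day 200 chips were the only repeat of a time point. The 79 samples are columns of these chips, with 19 to 20 columns per chip, and columns and cells were not taken as replicates of a day. No test between days was therefore made, and every interval given is a 95% interval. The intervals cover counting error and nothing else, because these reads carry no molecular identifiers. The median cell held 160343 to 251929 reads on the 4 chips, and the column totals ran from 3414268 to 7999822 reads. Chip a stood apart: it had the most reads per cell but the fewest genes, with a median of 2363.5 genes read per cell against 3492 to 3813.5 on the other chips, and its part in what follows was not tested. Each of the 40 row barcodes was shared by 35 to 59 of the columns. The eye field genes were counted after thinning each cell to 50000 reads. Reads of at least 3 of the 7 were held by 69.6% of cells at day 60 and 76.03% at day 90, and by 50.3% and 66.9% on chips a and b. This share does not measure retinal identity, since it was 41.3% in rod-like and 91.2% in Müller glia-like cells, clusters described further on. At least 3 of the 28 HOX genes of the table were read in 45.5%, 7.33%, 3.93% and 22.05% of the cells of the same chips. In bulk sums over cells, fewer positive cells and less RNA per cell cannot be told apart, so the share of cells with a read is given beside each level.

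ZIC1 was by far the most read member. Of 29720 reads of all 8 members, 20406 (68.7%) were of ZIC1, and 508 of 1976 cells (25.7%) held at least 1 read of it. The other members were read in few cells, from 12 cells for EN1 (0.607%) to 101 cells for EMX2 (5.11%). Per kilobase of annotated exon, the level over all cells was highest for ZIC1 at 7.36 CPM (the counts-per-million scale) per kilobase, followed by IRX3 at 1.78, EMX2 at 1.46, OTX1 at 0.823, PAX3 at 0.665, EN2 at 0.520, FOXD1 at 0.491 and EN1 at 0.174. By CPM not scaled by length, PAX3 at 5.28 (interval 5.06 to 5.51) and IRX3 at 5.24 (5.02 to 5.46) came next after ZIC1. The annotated exons of PAX3 are the longest of the 8. How evenly reads cover the transcripts was not given in the counts, so the order per kilobase is uncertain.

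Neighbours in the genome bear on the counts of EMX2 and ZIC1, because the cDNA kit does not mark strand and no strand setting was named for the counting. EMX2 lies on chromosome 10 from 117542445 to 117549546 on the plus strand (GRCh38, GENCODE 44), and the antisense RNA EMX2OS overlaps its start. ZIC1 lies on chromosome 3 from 147393422 to 147510293 on the plus strand, and the 5′ part of this span overlaps ZIC4 on the minus strand. ZIC4 ends at 147406809, before the RefSeq start region of ZIC1 given below, so the overlap concerns the part of the span upstream of that start. EMX2OS had 2429 reads and ZIC4 had 7501, and without strand the reads of a gene and of its opposite neighbour cannot be told apart where they overlap. The start regions of these genes are shown because EMX2 is the member that separated the 2 day 200 chips and ZIC1 the one that carried most reads. The sequences are from RefSeq on GRCh38.p14, plus strand, 5′ to 3′, from 250 bases before to 50 bases after the annotated start, at chr10:117542496-117542795 for EMX2 and chr3:147409115-147409414 for ZIC1, and capitals mark matches, on either strand, to the 4 motifs explained after the sequences.
EMX2: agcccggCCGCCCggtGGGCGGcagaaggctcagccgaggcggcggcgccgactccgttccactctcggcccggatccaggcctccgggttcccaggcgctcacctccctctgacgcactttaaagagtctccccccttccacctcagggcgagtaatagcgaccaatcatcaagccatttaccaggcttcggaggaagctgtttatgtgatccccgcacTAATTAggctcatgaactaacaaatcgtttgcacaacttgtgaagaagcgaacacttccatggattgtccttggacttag
ZIC1: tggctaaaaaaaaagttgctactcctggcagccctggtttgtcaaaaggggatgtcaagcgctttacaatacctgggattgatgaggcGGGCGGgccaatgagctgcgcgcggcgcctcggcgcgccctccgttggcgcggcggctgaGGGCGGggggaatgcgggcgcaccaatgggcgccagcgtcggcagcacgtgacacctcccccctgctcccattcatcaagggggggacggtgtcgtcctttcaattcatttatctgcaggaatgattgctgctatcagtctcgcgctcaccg
Promoters were found for 6 of the 8 members, FOXD1, EMX2, OTX1, EN2, PAX3 and ZIC1. TAATCC is the core bound by OTX and CRX type homeodomains, TAATTA the core of many other homeodomains, TATAAA the TATA box and GGGCGG the GC box. GGGCGG occurred in 5 of the 6 promoters, with PAX3 as the exception, and in 44.95% of all 35116 promoters of the table. TAATTA occurred in 1 of the 6, that of EMX2, and in 4.84% of all. TAATCC occurred in 0 of the 6, against 6.36% of all, and the TATA box in 0 of the 6, against 11.5%. A match is a description of letters in a window, and nothing was drawn from it about binding.

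The forebrain members are FOXD1, EMX2 and OTX1. FOXD1 (chromosome 5, 73444827 to 73448777, minus strand) is a forkhead factor of the temporal retina and ventral diencephalon. Its level was 1.21 CPM at day 60 (23 cells with a read), 3.21 CPM at day 90 (18 cells), 0.755 CPM on day 200 chip a (6 cells) and 0 on chip b, where 0 of 381 cells held a read and a count of 0 allows up to 0.0336 CPM. The columns ran from 0 to 6.74 CPM at day 60, with a median of 0.695, and from 0 to 27.9 CPM at day 90, with a median of 0.191. The day 90 level rested on few cells: 2 ECM-like cells held 138 reads each of the 371, and without the 32 ECM-like cells of that chip the level was 0.609 CPM. ECM-like cells are the cluster led by COL3A1, APOD and MGP, described further on.

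EMX2 is a homeodomain factor that patterns the dorsal telencephalon. It was at 4.37 CPM at day 60 (28 cells, 4.84%) and at 4.57 CPM at day 90 (29 cells, 4.39%). The 2 chips of day 200 differed: chip a held 0 reads in 356 cells, and chip b held 943 reads in 44 of 381 cells (11.5%, interval 8.52 to 15.2%), or 10.6 CPM. A count of 0 on chip a allows up to 0.0310 CPM and up to 0.843% of cells. The reads of chip b were clumped, with 178 of them in 1 cell, so no fold between the chips was taken from this limit. Columns of chip b ran from 0 to 83.1 CPM with a median of 2.76, and 16 of its 20 columns held a read, as did 16 of 19 at day 60 and 14 of 20 at day 90. Chip a was thus the only one of the 4 chips without the gene, and it was the chip with the most reads and the fewest genes per cell. The same chip held 6 ECM-like cells against 31 on chip b, and without them chip b still stood at 5.56 CPM, from 28 of 350 cells (8.00%).

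OTX1, a partner of OTX2 in the forebrain and midbrain, had the most even levels of the 3. They were 2.81 CPM at day 60 (20 cells), 5.07 at day 90 (37 cells), 4.09 on chip a (5 cells) and 3.81 on chip b (15 cells), and the day 200 mean was 3.95 ± 0.195 CPM (SD, n = 2 chips). The even sums hid uneven cells: on chip a, 284 of the 395 reads came from 1 AOC2-led cell, and 2 of 20 columns held a read. OTX1 lies on chromosome 2 from 63050057 to 63057836. OTX2, its relative in photoreceptors and pigment epithelium, was at 330 CPM over all cells. At 50000 reads per cell, 26 of 52 OTX1-positive cells (50%) and 45.3% of OTX1-negative cells held OTX2, a difference of 4.74 percentage points with an interval of -8.56 to 18.045. By chip it was 0 of 13 cells against 21.6% at day 60 and 20 of 25 cells against 67.8% at day 90. For chips a and b it was 2 of 2 against 47.5% and 4 of 12 against 40.9%. The interval of the difference included 0 on every chip, with -25.2 to 1.44 at day 60 and -7.23 to 23.975 at day 90.

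EN1 and EN2 are engrailed factors of the midbrain and the isthmus, the signalling border with the hindbrain. EN1 (chromosome 2, 118842171 to 118847648) was the scarcest member, with 0.667 CPM from 6 cells at day 60 and 1.14 CPM from 6 cells at day 90. It had 0 reads in all 737 cells of day 200, which allows up to 0.407% of cells and, over both chips together, 0.0161 CPM. Of its 12 positive cells, 3 were cone-like, 4 ECM-like and 2 Müller glia-like, with 1 cell each in the GDF15-led, VSX1-led and RGC-like clusters.

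EN2 (chromosome 7, 155458129 to 155464831) was at 1.51 CPM at day 60 (9 cells), 3.08 at day 90 (26 cells), 0.424 on chip a (7 cells) and 1.82 on chip b (10 cells). The 2 day 200 chips, at a mean of 1.12 ± 0.984 CPM (SD, n = 2 chips), spanned the day 60 level, and day 90 lay above both. Column values overlapped between all chips, with a lowest value of 0 on each. No cell held 100 reads of either engrailed gene, and EN1 and EN2 were read together in 1 cell at 50000 reads, of 10 EN1-positive and 38 EN2-positive cells.

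The members of the hindbrain, spinal cord and dorsal tube are IRX3, PAX3 and ZIC1. IRX3 (chromosome 16, 54283304 to 54286787, minus strand) is an Iroquois factor of the posterior forebrain, hindbrain and spinal cord. Its levels were 5.21 CPM at day 60 (25 cells), 2.51 at day 90 (30 cells), 4.98 on chip a (10 cells) and 9.08 on chip b (18 cells). The day 200 chips, at 7.03 ± 2.90 CPM (SD, n = 2 chips), lay on either side of the day 60 level, which therefore could not be ordered against them. Day 60 cells with the gene held a median of 22 reads of it and those of day 90 a median of 2. IRX5, its neighbour in the Iroquois family, was read in 3 of 61 IRX3-positive cells (4.92%) and in 4.35% of the others.

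PAX3 (chromosome 2, 222199887 to 222298998, minus strand) is a paired-box factor of the dorsal neural tube, the neural crest and muscle precursors. It was at 13.6 CPM at day 60 (20 cells), 2.26 at day 90 (9 cells), 1.35 on chip a (7 cells) and 3.69 on chip b (8 cells). The day 60 level was 6.03 times that of day 90 and 10.1 and 3.68 times those of the day 200 chips. The cells behind it were few: 1 cone-like cell held 518 of the 1426 day 60 reads (36.3%), 1 cell held 80.0% of the reads of chip a, and 11 of 19 day 60 columns held a read. PAX7, the closest relative of PAX3, was read in 0 of the 36 PAX3-positive cells at 50000 reads and in 0.362% of the others.

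ZIC1 is a zinc finger factor of the dorsal neural tube and the cerebellum. Its level was 105 CPM at day 60 (11005 reads, interval 103 to 107), 35.6 at day 90 (34.5 to 36.7), 22.01 on chip a (21.1 to 22.965) and 35.4 on chip b (34.2 to 36.6). The columns ran from 54.9 to 301 CPM with a median of 94.5 at day 60, from 6.45 to 85.3 with a median of 28.9 at day 90, from 0 to 109 with a median of 10.0 on chip a and from 0.293 to 99.995 with a median of 23.7 on chip b. Columns overlapped between days, but 12 of 19 day 60 columns lay above the highest of day 90, and 16 of 20 day 90 columns below the lowest of day 60. The day 60 chip was 2.95 times as high as day 90 and 4.77 and 2.96 times as high as chips a and b, while day 90 and chip b differed by a factor of 1.01, less than the 1.61 between the 2 day 200 chips. The share of cells with a read had the same order, with 40.3% at day 60 (interval 36.3 to 44.4%), 23.8% at day 90, 21.3% for chip b and 10.4% for chip a. After thinning to 50000 reads these were 31.5%, 18.3%, 6.74% and 16.3%, in the order of the chips given first, with 6 cells of day 90 left out as too shallow.

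**Figure D1:**
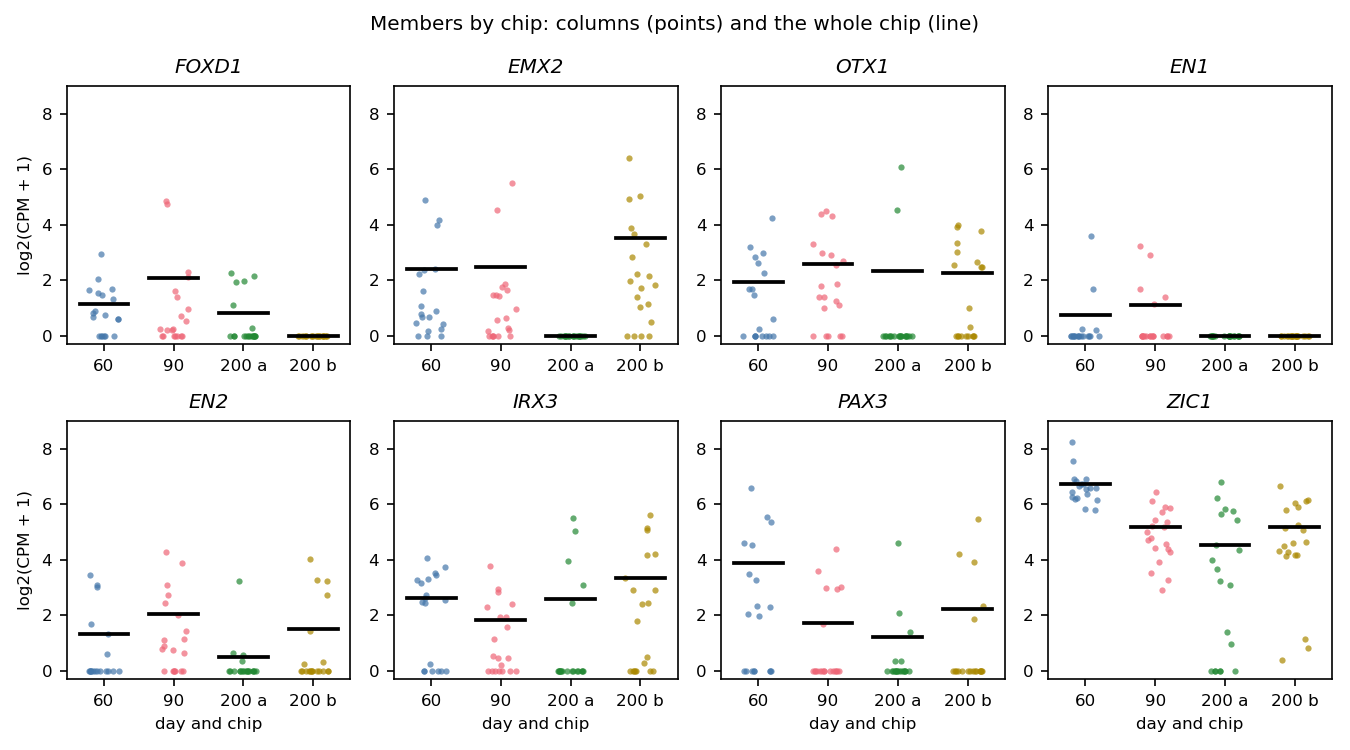
Level of each member as log2(CPM + 1) by day and chip, where each point is 1 chip column and the black line is the whole chip. All 19 day 60 columns of ZIC1 hold reads and 12 of them lie above every day 90 column, EMX2 has no read on chip a, EN1 has none on either day 200 chip, and FOXD1 has none on chip b.

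A member was called different between days when its log2 ratio of (CPM + 1) was at least 1 in size, in both day 200 chips where day 200 entered, among the 16689 genes with a mean of at least 1 CPM over the chips. This is a rule of size without a test. The minimum was reached by 7 of the 8 members, all but EN1. From day 60 to day 90, PAX3 (log2 ratio -2.16) and ZIC1 (-1.53) were called lower and 0 members higher, against 8.84% of all tested genes lower and 12.3% higher. From day 60 to day 200, PAX3 (-2.64 and -1.64 on chips a and b) and ZIC1 (-2.20 and -1.54) were called lower and 0 higher, against 5.57% and 7.18% of all genes. From day 90 to day 200, FOXD1 was called lower (-1.26 and -2.07) and 0 members higher, against 3.97% and 3.01% of all genes. Without ECM-like cells the day 90 level of FOXD1 was 0.609 CPM, against 0.516 CPM for chip a and 0 for chip b, which is under the 2-fold rule. These 3 comparisons share chips. Between the day 200 chips, EMX2 was called higher on chip b and 0 members lower, against 15.9% and 7.02% of all genes. The median log2 ratio of the 7 members was 0.05 at day 90 and -0.66 at day 200 relative to day 60, and that of all tested genes 0.01 and 0.02.

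**Figure D2:**
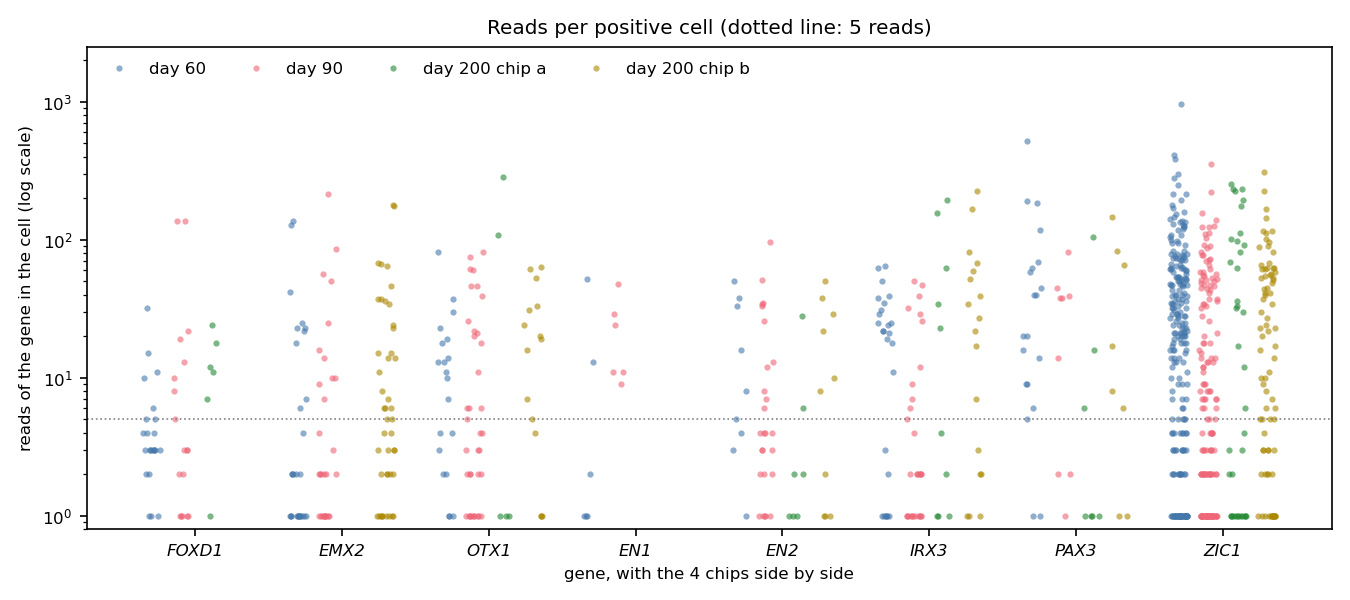
Reads of each member in every cell that held at least 1, on a log axis, with the 4 chips side by side. ZIC1 reaches 961 reads in 1 day 60 cell and PAX3 518, while many positive cells of every member hold 1 to 4 reads, under the dotted line at 5.

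Many positive cells held only 1 to 4 reads, and these carry less certainty than the rest. That was the case for 186 of the 508 ZIC1-positive cells, 56 of 101 for EMX2, 38 of 83 for IRX3, 35 of 77 for OTX1, 27 of 52 for EN2, 27 of 47 for FOXD1, 11 of 44 for PAX3 and 4 of 12 for EN1. Columns are pooled libraries, so a strong cell could share a column with weak ones. Of the 56 weak EMX2 cells, 8 (14.3%) lay in the 5 columns that held a cell with at least 100 EMX2 reads, and these columns held 6.98% of all cells. For ZIC1 the shares were 55.4% and 51.3%, for OTX1 8.57% and 1.97%, for IRX3 10.5% and 4.2004%, for PAX3 9.09% and 6.58% and for FOXD1 3.70% and 3.24%. The part of such sharing in the counts of weak cells was not tested.

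The 1976 cells were grouped into 12 clusters after the study's procedure, but with the members, the eye field genes and the HOX genes left out of the variable genes. Names come from the marker lists that the study gave a name of their own, and otherwise from the first gene of a cluster. The names are rebuilt here and need not match the study's own. Values per cluster are descriptions without a test. The largest were 442 Müller glia-like cells (led by TF, GPX3 and WIF1), 320 GDF15-led cells, 241 cone-like cells (ARR3, PDE6H and GUCA1A) and 216 VSX1-led cells. The others were 140 RGC-like cells (NEFL, CAMKV and NEFM), 140 IGFBP6-led, 104 mitotic-like, 97 RPE-like (pigment epithelium) and 85 ECM-like cells. The smallest were 80 AOC2-led, 63 rod-like and 48 GFAP-led cells. RGC-like cells were named from the study's list for retinal ganglion cells (RGCs), which itself holds HOXB5. At least 3 eye field genes were read in 35.7% of them and at least 3 HOX genes in 69.3%. The name is thus no evidence that they are retinal. AOC2-led and GFAP-led cells held all 10 listed markers of the study's clusters 7 and 8, which carry no cell type name.

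Rod-like cells, a retinal type for which these genes are not known as markers, were used to set the level that free RNA or shared barcodes may give. They were 26 cells of day 90, 26 of chip a and 11 of chip b, with 0 of day 60, so they set no such level for day 60. In 63 rod-like cells with a median of 200013 reads, ZIC1 was read in 5 cells (7.94%) at 0.899 CPM, PAX3 in 2 (3.17%), EMX2, OTX1 and EN2 in 1 each (1.59%), and FOXD1, EN1 and IRX3 in 0, which allows up to 4.76%. Every other cluster had a higher share than the rod-like cells for ZIC1 and IRX3, but each of them also held day 60 cells. For PAX3, 8 of the 11 other clusters had a share at or below it, though the rod-like share rests on 2 cells (interval 0.387 to 11.002%). One of the 8, the ECM-like cluster, was at 4.06 CPM, with 69 of its 70 reads in 1 day 60 cell.

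**Figure D3:**
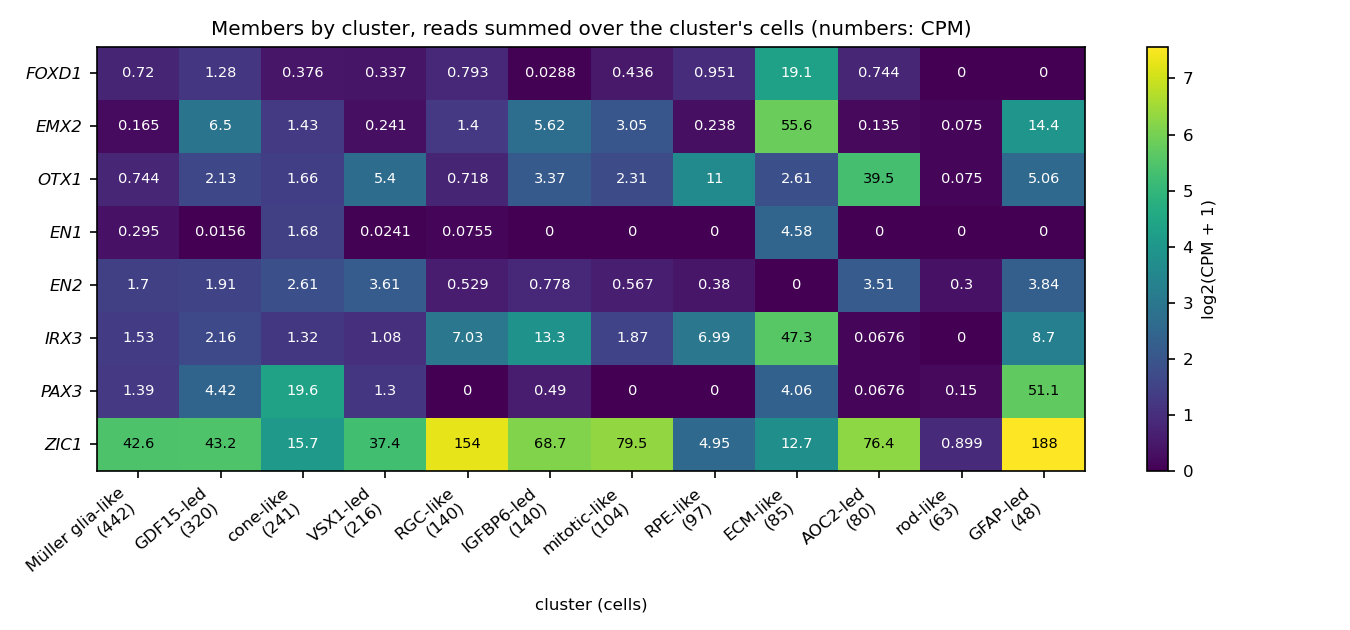
Level of each member (rows) in each cluster (columns, with the number of cells), as CPM in numbers and log2(CPM + 1) in colour, from reads summed over the cluster's cells. FOXD1, EMX2, EN1 and IRX3 are highest in ECM-like cells, OTX1 in AOC2-led cells, and EN2, PAX3 and ZIC1 in GFAP-led cells.

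The members fell into different clusters. The 85 ECM-like cells, 4.25% of all reads, held 49.7% of the EMX2 reads, 57.8% of the FOXD1 reads, 38.3% of the IRX3 reads and 39.1% of the EN1 reads. EMX2 was at 55.6 CPM there, in 32 cells (37.6%, interval 27.4 to 48.8%). By chip, it was read in 6 of 16 ECM-like cells at day 60 (25.6 CPM), 10 of 32 at day 90 (69.1 CPM), 0 of 6 on chip a and 16 of 31 on chip b (71.1 CPM). IRX3 was at 47.3 CPM in 18 ECM-like cells (21.2%), and by chip at 50.9, 5.74, 113 and 64.4 CPM, where the chip a value came from 2 cells. FOXD1 was at 19.1 CPM in 7 cells and EN1 at 4.58 CPM in 4 cells, all 4 of day 90. EN2 was read in 0 of the 85.

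These cells carried the mesenchyme check list strongly. Its 8 genes were all read, and their summed level in ECM-like cells was 39337 CPM, against 102 to 1829 CPM in the other 11 clusters. COL1A1 and COL3A1 were read in 100% of the cells, and the mesenchymal regulators TWIST1 and PRRX1 in 40.0% and 47.1%. By chip, the list summed to 14555 CPM in ECM-like cells of day 60 and 36179 to 53933 CPM on the other chips, and the clusters outside held 269 to 477 CPM on every chip. Reads of at least 3 eye field genes were found in 22.9% of the ECM-like cells, the lowest share of the 12 clusters, and of at least 3 HOX genes in 30.1%.

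The level of EN2 was more even between clusters. Its level was 3.84 CPM in GFAP-led cells, all from 1 cell, 3.61 CPM in VSX1-led cells (8 cells) and 3.51 CPM in AOC2-led cells (4 cells).

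OTX1 was highest in AOC2-led cells, at 39.5 CPM in 12 of 80 cells (15.0%), and next in RPE-like cells, at 11.0 CPM in 10 of 97 (10.3%). AOC2-led cells are led by AOC2, CPAMD8 and MYOCD. OTX1 was read there in 3 of 20 cells at day 60, 3 of 38 at day 90, 1 of 8 on chip a and 5 of 14 on chip b, so it was found on every chip, though the chip a value of 148 CPM is that of 1 cell. At least 3 eye field genes were read in 91.3% of AOC2-led cells and at least 3 HOX genes in 1.25%.

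ZIC1 was spread over most clusters. It was highest in GFAP-led cells, at 188 CPM in 30 of 48 cells (62.5%), and in RGC-like cells, at 154 CPM in 53 of 140 (37.9%). At least 3 HOX genes were read in all GFAP-led cells and in 69.3% of RGC-like cells, the highest shares of the 12 clusters. Mitotic-like cells followed at 79.5 CPM (39.4% of cells), AOC2-led cells at 76.4 (42.5%), IGFBP6-led cells at 68.7 (38.6%), GDF15-led cells at 43.2 and Müller glia-like cells at 42.6. RPE-like cells at 4.95 CPM and rod-like cells at 0.899 CPM were lowest.

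The higher ZIC1 level of day 60 was seen within most clusters. Among clusters with at least 20 cells on both chips, day 60 was higher than day 90 in 7 of 8, with AOC2-led cells as the exception, above chip a in 4 of 4 and above chip b in 5 of 5. In Müller glia-like cells the levels were 72.01, 35.4, 33.8 and 26.996 CPM on the 4 chips, and in GDF15-led cells 96.6, 24.1, 13.6 and 35.2. AOC2-led cells went the other way, from 33.0 CPM at day 60 to 154 at day 90. RGC-like cells were 85 of the 578 cells at day 60 and 28, 8 and 19 on the other chips, and without RGC-like and GFAP-led cells the levels of ZIC1 were 77.7, 29.5, 22.4 and 30.4 CPM in the same chip order.

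PAX3 was highest in GFAP-led cells, at 51.1 CPM in 8 of 48 cells (16.7%), and in cone-like cells, at 19.6 CPM in 13 of 241 (5.39%). In cone-like cells of day 60 it was at 79.9 CPM in 6 of 47 cells, with 63.2% of those reads in 1 cell, and on the other chips at 10.1, 0.0557 and 9.73 CPM. PAX3 was read in 0 of 140 RGC-like, 104 mitotic-like and 97 RPE-like cells. Of the muscle check list, in which PAX3 acts upstream, 3 of 5 genes were rows of the table. ACTC1 was at 44.2 CPM in cone-like cells and 0 in GFAP-led cells, MYOG at 1.38 and 2.33 CPM, and DES at 0.107 and 0.304 CPM, and their part in the PAX3 level was not tested.

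The overlap with eye field genes was compared at 50000 reads per cell, as the share of cells with at least 3 of the 7 genes among cells positive and negative for each member. For EMX2, 32 of 70 positive cells (45.7%) and 68.5% of 1900 negative cells held at least 3, a difference of -22.8 percentage points (interval -34.1 to -11.0). The difference was negative on each chip with EMX2-positive cells, at -17.5 at day 60 (interval -38.7 to 2.93), -24.1 at day 90 (-45.3 to -3.77) and -32.1 on chip b (-47.4 to -14.2). Without ECM-like cells, a setting chosen after seeing the data, it was -11.8 with an interval of -26.8 to 1.83. EMX2-positive cells thus held eye field genes less often, and the interval included 0 once ECM-like cells were left out.

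IRX3 showed a similar difference of -22.5 percentage points (45.9% of 61 positive against 68.4% of negative cells, interval -34.6 to -9.96), and without ECM-like cells it was -9.92 (interval -24.6 to 3.23). By chip it was -34.5 at day 60 (interval -51.5 to -13.4), -15.3 at day 90, and -22.1 and -17.6 for the chips a and b, and these last 3 intervals included 0. FOXD1 was at -17.99 (30 positive cells, interval -34.96 to -1.01), but only -3.50 (-17.4 to 6.47) without thinning, and its interval also included 0 with at least 2 or 4 of 7 genes, with at least 5 reads at 50000 reads per cell and without ECM-like cells. With at least 5 reads and no thinning FOXD1 was at -33.0 (20 positive cells, interval -46.96 to -11.0). Without thinning EMX2 was at -13.4 (-23.2 to -4.80) and IRX3 at -10.6 (-21.3 to -1.57). PAX3 was at -15.2 (36 positive cells, interval -31.1 to 0.166). PAX3 at day 60 alone was at -31.6 (18 positive cells, interval -50.6 to -8.82).

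Of 38 EN2-positive cells, 34 (89.5%) held at least 3 eye field genes against 67.3% of negative cells, a difference of 22.2 percentage points (interval 8.43 to 28.9). At day 90 all 20 EN2-positive cells did so, a difference of 24.7 (8.30 to 28.2). The differences of the other chips were 5.53 at day 60, 16.5 for chip a and 19.1 for chip b, from 8, 3 and 7 positive cells, and their intervals included 0. Over all cells without thinning it was 10.7 (interval -0.476 to 16.4), with at least 4 of 7 genes 5.06 (-10.5 to 20.1) and with at least 5 reads at 50000 reads per cell 8.37 (-14.95 to 30.3), with intervals that included 0. OTX1-positive cells, at 1.56 (52 cells, interval -12.1 to 12.6), and EN1-positive cells, at -17.8 (10 cells, interval -44.2 to 8.62), had intervals that included 0. For EN1 at day 90 alone, 2 of 6 positive cells held at least 3 eye field genes, at -43.1 (interval -66.95 to -6.27).

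ZIC1 had the most positive cells, and its overlap with the eye field changed sign between chips. Over all cells, 279 of 388 positive cells (71.9%) and 66.7% of 1582 negative cells held at least 3 eye field genes, a difference of 5.22 percentage points whose interval started at 0.0227 and ended at 10.1. The pooled value mixes opposite values: at day 60 the difference was -9.29 (63.2% of 182 against 72.5% of 396, interval -17.6 to -1.19), and at day 90 it was 11.0 (85% of 120 against 74.02% of 535, interval 2.72 to 17.5). It was 17.6 on chip a (24 positive cells, interval -3.10 to 33.8) and 8.68 on chip b (62 positive cells, interval -4.39 to 19.4). Without thinning the day 60 difference was -4.46, with an interval of -11.5 to 2.35 that included 0, and that of day 90 was 10.5 (4.69 to 15.04).

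**Figure D4:**
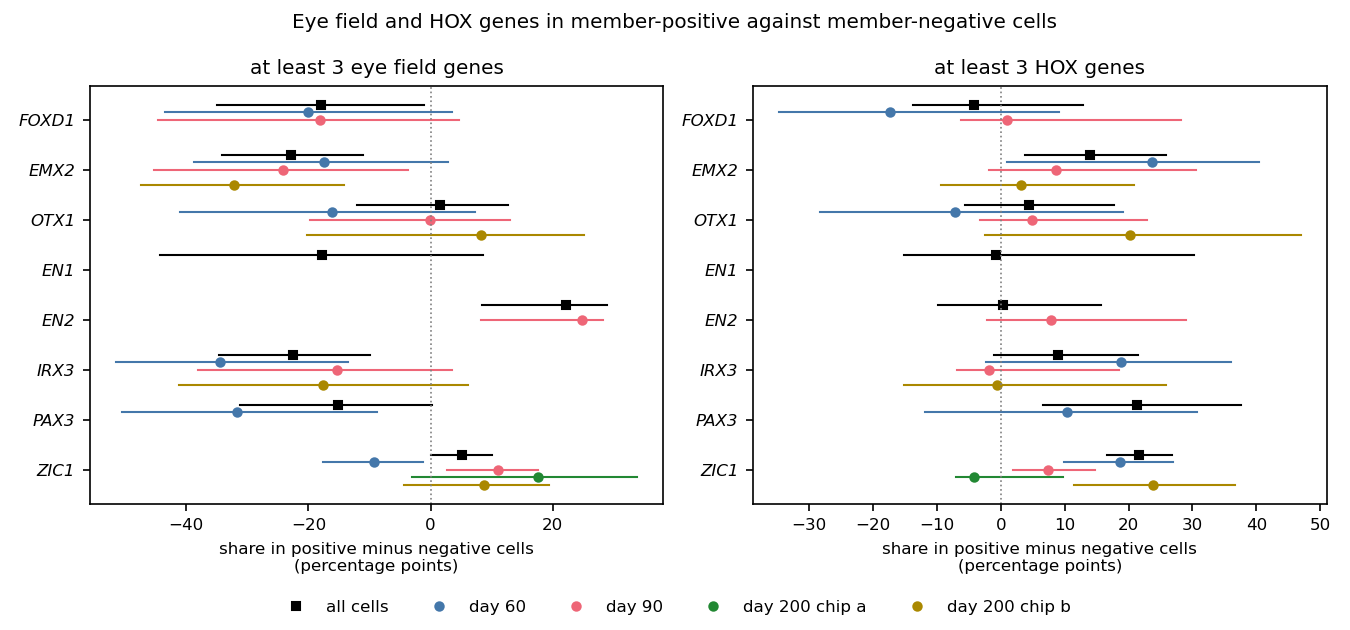
Difference in the share of cells with at least 3 eye field genes (left) and at least 3 HOX genes (right) between cells positive and negative for each member, in percentage points, at 50000 reads per cell, with 95% Newcombe intervals. Black squares are all cells, coloured circles are chips with at least 10 positive cells. ZIC1 lies left of 0 for the eye field at day 60 and right of 0 on the other chips.

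The same comparison with HOX genes, which mark the hindbrain and spinal cord, gave positive values for ZIC1. At least 3 HOX genes were read in 148 of 388 ZIC1-positive cells (38.1%) and in 16.5% of negative cells, a difference of 21.6 percentage points (interval 16.6 to 26.9). It was 18.6 at day 60 (9.84 to 26.96), 7.35 at day 90 (1.87 to 14.8) and 23.8 on chip b (11.4 to 36.7). On chip a, where 14 of 356 cells held at least 3 HOX genes, 0 of 24 ZIC1-positive cells did. Without RGC-like and GFAP-led cells, also chosen after seeing the data, the pooled difference was 13.5 (8.64 to 18.8). PAX3 was at 21.3 (15 of 36 positive cells, interval 6.65 to 37.5), but within each chip its interval included 0, with 10.4 at day 60 (-11.9 to 30.7) and 28.6 on chip b (-0.271 to 57.3). EMX2 was at 14.02 (24 of 70 positive cells, interval 3.81 to 25.8), with 23.7 at day 60 (0.908 to 40.4), 8.71 at day 90 (-1.80 to 30.6) and 3.22 on chip b (-9.40 to 20.8). The pooled intervals of IRX3 (9.03), OTX1 (4.35), EN2 (0.297), EN1 (-0.765) and FOXD1 (-4.16) included 0.

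Levels were compared in the same way in the cells with the clearest signal. In the 45 cells with at least 5 EMX2 reads, the 7 eye field genes summed to 548 CPM against 1438 CPM in EMX2-negative cells, and PAX6, the regulator of eye and forebrain, was at 124 against 434 CPM. The EMX2 sum was lower on each chip with such cells. In cells with at least 5 ZIC1 reads, the eye field sum was below that of negative cells at day 60 (1208 against 1374 CPM) and above it at day 90 (1684.5 against 1256) and for both day 200 chips (1935 against 1599 for chip a, 1544 against 1396 for chip b). HOX genes summed to 1580.5 against 734 CPM at day 60, 284 against 104 at day 90 and 782 against 278 on chip b, and to less, 46.9 against 135, on chip a. In cells with at least 5 IRX3 reads, the eye field sum was lower at day 60 (651 against 1341 CPM) and on chip b (700.2 against 1454), and higher at day 90 (1365 against 1326) and on chip a (2093 against 1571). Single strong cells differed as well: the ZIC1 cell with the most reads, an RGC-like cell of day 60 with 961, held 1 eye field and 7 HOX genes at 50000 reads, the second, a Müller glia-like cell of day 60 with 411, held 6 and 5, and the third, a mitotic-like cell of day 60 with 384, held 7 and 0.

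At 50000 reads per cell, 580 of 1970 cells (29.4%) held at least 1 member, 90 held at least 2 and 14 at least 3. The most common pair was EMX2 with ZIC1, in 23 cells, which are 32.9% of the EMX2-positive and 5.93% of the ZIC1-positive cells. OTX1 and ZIC1 shared 21 cells (40.4% of the OTX1-positive cells), where 19.7% of all cells held ZIC1. The other counts were IRX3 and ZIC1 10, EN2 and ZIC1 9, FOXD1 and ZIC1 8 and PAX3 and ZIC1 7. EMX2 and IRX3, both highest in ECM-like cells, shared 5 cells of 70 and 61. EMX2 and EN1 shared 3 of the 10 EN1-positive cells.

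Over all cells, ZIC2, ZIC4 and ZIC5, which belong to the same gene family, were read more often in ZIC1-positive than in ZIC1-negative cells. Within chips the interval of the difference lay above 0 on 3 chips for ZIC2, on 2 for ZIC4 and on 1 for ZIC5. ZIC2, a family member of the early forebrain, was read in 54.1% of ZIC1-positive and 34.96% of negative cells (difference 19.2 percentage points, interval 13.7 to 24.6). ZIC4, the opposite neighbour, was read in 17.3% against 5.37% (11.9, interval 8.25 to 16.1). ZIC5 was read in 24.2% against 16.2% over all cells (7.98, interval 3.56 to 12.8), but in 30.8% against 30.3% at day 60, where the interval ran from -7.35 to 8.73. ZIC2 stood at 104, 76.4, 63.7 and 57.9 CPM on the 4 chips in the order of days, so it too was highest at day 60, by less than 2-fold. EMX2OS was read in 15 of 70 EMX2-positive cells (21.4%) and in 1.68% of the others.

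Other region markers were set beside the members, by genes among the 3 highest of each list over all cells. Of the telencephalon and diencephalon list, LHX9 was at 20.7 CPM and LHX5 at 1.49. Of the midbrain and isthmus list, PAX8 was at 18.6, PAX2, which also marks the optic stalk, at 17.7 and LMX1A at 6.45. Of the hindbrain and spinal cord list, EGR2 was at 57.6 and IRX2 at 28.3. Of the dorsal tube and neural crest list, MSX1 was at 23.7, TFAP2B at 5.86 and MSX2 at 3.24. The HOX list was led by HOXB5 at 98.6, HOXB3 at 80.0 and HOXA5 at 30.5, and the list of the optic stalk and retinal axes by the retinoic acid enzymes CYP26A1 at 764 and ALDH1A3 at 58.3 and by TBX2 at 58.1 CPM. Of the eye field list, PAX6 was at 423, SIX3 at 371, RAX at 184, SIX6 at 173, LHX2 at 135 and NR2E1 at 31.9 CPM.

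By the same rule of size, which is no test, 0 of 7 tested eye field genes were called between any days or chips. From day 60 to day 90, 19 of 19 tested HOX genes were called lower (median log2 ratio -2.46), and 2 of 4 tested midbrain and isthmus genes and 2 of 5 hindbrain and spinal cord genes. Of all tested genes, 8.84% were called lower and 12.3% higher at day 90. HOXB5 went from 249 CPM at day 60 to 39.1 at day 90, and PAX2 from 27.1 to 5.95. HOX genes were called lower from day 60 to day 200 in 11 of 19, and midbrain and isthmus genes in 2 of 4, with 0 higher in both lists. Of 5 hindbrain and spinal cord genes, 2 were called higher and 2 lower at day 200. Of 6 telencephalon and diencephalon genes it was 1 higher and 2 lower, and of 5 dorsal tube and neural crest genes 0 and 1. Of 9 optic stalk and retinal axis genes 0 were called at day 200. The shares of all genes were 7.18% higher and 5.57% lower. Of 5 tested dorsal tube and neural crest genes 1 was called higher at day 90 and 0 lower, and of 9 tested optic stalk and retinal axis genes 1 higher and 2 lower. Of 6 tested telencephalon and diencephalon genes, 1 was called higher and 0 lower at day 90. Between the day 200 chips, chip b was the higher for 14 of 19 HOX genes, 7 of 8 mesenchyme genes, 2 of 4 midbrain and isthmus genes, 2 of 5 dorsal tube and neural crest genes, 1 of 5 hindbrain and spinal cord genes, 1 of 6 telencephalon and diencephalon genes, 0 of 9 optic stalk and retinal axis genes and 0 of 7 eye field genes, where 15.9% of all genes were. The mesenchyme gene COL3A1, a fibrillar collagen, was at 328 CPM on chip a and at 1313 CPM on the other.

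The genes most like each member were ranked over 31 sums of a cluster on a chip with at least 20 cells, among the 14184 genes kept for this ranking, as Pearson correlations of log2(CPM + 1). The sums share chips and depth, and the values are descriptions. For EMX2 they were PTHLH (r = 0.81), its antisense neighbour EMX2OS (0.80) and POSTN, a matrix protein (0.77), all 3 highest in ECM-like cells. For FOXD1 they were XPNPEP2 (0.87), CAVIN2 (0.87) and CCL26 (0.86), whose rank correlations of 0.38, 0.37 and 0.34 were lower, since 1 sum, ECM-like cells of day 90 at 52.9 CPM, stood far above the others. For IRX3 they were SLC19A3 (0.74), TRIL (0.68) and ADAMTSL1 (0.67). For ZIC1 they were CHML (0.84), ZNF521 (0.80) and the orphan nuclear receptor NR2F1 (0.78), with rank correlations of 0.75, 0.75 and 0.80. OTX1 was most like TCEANC (0.63), ASS1 (0.63) and BTF3 (0.60), EN2 like LRP4-AS1 (0.66), TMEM198B (0.65) and ATP13A5 (0.63), and PAX3 like AL391152.1 (0.66), SNRPC (0.66) and RPL9P32 (0.65). EN1 had reads in fewer than 20 cells and was not ranked.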

How the data were processed

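Single cells of H9 retinal organoids were sequenced as 2 day 200 chips and 1 chip each of day 60 and day 90. The authors trimmed reads with Trimmomatic 0.33, aligned them with STAR 2.4.0 to GRCh38.p7 with GENCODE 25 and used HTSeq 0.6 for counting. The values the authors deposited are raw counts per gene, without molecular identifiers, for 1976 cells filtered by the authors. All cells were mapped to columns and chips by their labels, and 0 columns of values were left unused. Spike-in reads (0.00479%) and no other rows were kept out of library sizes, and 166 rows carry a number in place of a symbol. The counts hold a single spike-in row, so this share does not measure the spike-in that was added. Keeping that row in the library size could hardly change a level. The authors used more spike-in and a looser spike-in limit at day 90, and a lower read minimum per cell at day 60.

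Here the counts were summed per chip, column and cluster and given as CPM, with exact Poisson intervals, exact binomial (Clopper-Pearson) intervals for shares and Newcombe intervals for differences. The floor for a count of 0 is 3 reads or 3 cells. Cells were clustered with Seurat 5.3.0 under R 4.3.3 (CCA, 20 dimensions, 1000 variable genes per day, 2417 of 2426 used, resolution 0.6). A name from a list needed at least 3 of its markers. AOC2-led, GFAP-led, VSX1-led and IGFBP6-led cells held as many of a list and were still named by their first gene. Doublets were called by scrublet (scanpy 1.11.5), which marked 1 and 0 cells at days 60 and 90 and 22 and 2 on chips a and b, and were kept except in an alternative, and the caller found too few at days 60 and 90 to be taken as having worked there. Python 3.11.15, numpy 2.4.6, scipy 1.17.1, pandas 2.3.3 and matplotlib 3.10.9 were used.

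The members, lists and settings were chosen with earlier results of these data known. Named outside the rule that follows were the relatives ZIC4, ZIC5, IRX5 and PAX7, the mesenchymal regulators TWIST1 and PRRX1, and the leading genes of clusters. The rule takes all members, the eye field genes and the 3 highest of each other list. It adds the 3 genes most correlated with each member that had reads in at least 20 cells. For this, only genes with at least 20 CPM in any sum of a cluster on a chip were ranked. Some genes that this rule takes are not reported here. The alternatives were spike-in reads in the library size, a mean over cells, at least 150000 reads, no called doublets, leaving out each day 200 chip, an offset of 5 CPM or no minimum, 25000 reads or no thinning, at least 5 reads, at least 2 or 4 genes, resolutions of 0.4 and 0.8 and all variable genes. Leaving out ECM-like cells, or RGC-like and GFAP-led cells, was added after seeing the data. On simulated data for day 90 against day 60, with 24414 genes, 200 of 200 genes changed 4-fold were called and 0 of 16510 unchanged ones. The simulation held counting error alone, without differences between cells, columns or chips, so it gives no error rate for these data. Between the 2 real day 200 chips, 15.9% of genes were called higher and 7.02% lower on chip b.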

Additional observations from a re-analysis of the deposited data

How the results depend on the processing

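No paired analysis was possible because no test was made between groups. ZIC1 was highest at day 60 under the alternatives run. With only cells of at least 150000 reads its day 60 level was 103 CPM, and without ECM-like cells 107 CPM at day 60 and 37.3 CPM at day 90. Leaving out 1 day 200 chip gave ZIC1 levels of 22.01 to 35.4 CPM at day 200, the higher beside 35.6 CPM at day 90, so that days 90 and 200 have no fixed order. The counts of members called were small and moved by single genes. With the mean over cells, 1 member was called higher at day 90. Leaving out a day 200 chip gave 0 to 1 members higher and 3 lower, whichever chip it was, against day 60, and 0 to 2 higher and 1 to 3 lower against day 90, and the count lower against day 90 was 0 with an offset of 5 CPM (FOXD1 then not called) and 2 without a minimum (FOXD1 and EN1). Over all genes, the share called in either direction was 12.7% for day 200 against day 60 and 20.9 to 32.4% after leaving out a chip, and 6.98% for day 200 against day 90, with 16.5 to 24.7% after leaving out a chip and 2.14% with the offset of 5 CPM.

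With at least 5 reads asked of every gene at 50000 reads per cell, the eye field difference of EMX2 was -37.1 percentage points and that of ZIC1 turned to -1.24 (interval -7.82 to 5.51), and the cause was not tested. The interval of the ZIC1 difference also included 0 with at least 2 of 7 genes (3.50), without ECM-like cells (2.75) and without either chip. With at least 5 reads and no thinning the ZIC1 difference was 6.45 (interval 0.559 to 12.1). It was then -10.7 at day 60 (-19.6 to -1.86) and 21.4 at day 90 (10.7 to 29.8). Leaving out a day 200 chip gave 0.893 (without chip a) to 4.49 (without chip b) for ZIC1 and -27.02 to -15.6 for EMX2. The ZIC1 difference for HOX genes was 13.5 without RGC-like and GFAP-led cells. At resolution 0.4, 5 of 8 members kept their highest cluster, and EN2, PAX3 and ZIC1 were then highest in AOC2-led, IGFBP6-led and RGC-like cells. With all variable genes 6 of 8 did, EN2 being highest in VSX1-led and ZIC1 in RGC-like cells (155 CPM), and PAX3 in GFAP-led cells was at 25.4 CPM. Without ECM-like cells 8 of 24 levels moved by more than the spread, among them FOXD1 at day 90.

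Among the limits are 1 chip per day, apart from day 200, and levels that often come from a few cells.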
